A study of Mus musculus with 23 samples.

Results

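Of the 84019 open regions called on day -2 in 3T3-L1 cells, 7420 formed a set of narrow regions without an authors' gene name that were also open on days -1 and 0. 3T3-L1 is an established mouse line of preadipocytes, fibroblast-like cells that can be turned into fat cells. Members were chosen by rule: a region of the day -2 count table outside the mitochondrial genome, without a gene name in the authors' table, under 600 bp wide, and overlapping by at least 1 bp a region of day -1 and a region of day 0. The rule passed 71751 regions without an authors' gene, of which 66301 were under 600 bp, 11245 of those overlapped a region of day -1, and 7420 overlapped a region of day 0 too. Members were thus 10.3% of the regions without an authors' gene. They are called narrow distal regions here, although distal means only that the authors gave the region no gene. Width, the missing gene name and presence on 3 days chose the members, so values of those properties are given as a description only.

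The assay was ATAC-seq, which reads accessibility from the places where a transposase can cut DNA and add sequencing adapters. All cells were 3T3-L1 preadipocytes, reverse-transfected while sub-confluent with 50 nM siRNA and Lipofectamine RNAiMAX. Controls, called scramble, received a non-targeting ON-TARGET siRNA, and the other arm received siRNA against Kdm5c, both from Dharmacon. Nuclei were taken 24 h later on day -2, 48 h later on day -1 and 72 h later on day 0. There were 23 libraries in 6 groups, with 4 libraries per arm and day except for 3 (replicates 1, 2 and 4) of Kdm5c siRNA on day 0. Nothing in the labels says that replicates were separate cultures, so p-values here measure only the spread between samples, and that spread may be technical. The design asks where chromatin opens or closes when Kdm5c is targeted before differentiation.

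Open regions away from promoters are often enhancers, stretches of DNA where transcription factors bind and act on the promoter of a gene that may lie far away. In fibroblasts, many such regions carry binding sites for AP-1, the dimer of Fos and Jun proteins, and for TEAD factors, which act with YAP. Kdm5c is an X-linked enzyme that removes methyl groups from lysine 4 of histone H3, a mark found in different degrees of methylation at promoters and enhancers. Promoters in CpG-rich DNA often carry GC boxes, the sites of Sp1-like factors.

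Although the authors gave these regions no gene, 374 of the 7221 members on chromosomes with listed gene starts held a RefSeq gene start, and RefSeq promoter windows of GRCm38.p6 cover those starts. Each window runs from 250 bases before to 50 bases after a start, 300 bases in all, and is written 5′ to 3′ in the direction of the gene. Examples are shown for 2 of the searched sites, GC boxes and AP-1 sites. These sites do not sort the set: of the 420 member windows, 16 held both and 174 held neither. The first 3 windows hold GC boxes. They belong to the 3 named genes with a GC box whose window lay whole inside the most counted members. They are the windows of Cmtr2 at chr8:110217710-110218009 (+), Nr4a1 at chr15:101266596-101266895 (+) and Lig4 at chr8:9976262-9976561 (-). Capitals mark the GC box letters GGGCGG or, on the other strand, CCGCCC.
Cmtr2: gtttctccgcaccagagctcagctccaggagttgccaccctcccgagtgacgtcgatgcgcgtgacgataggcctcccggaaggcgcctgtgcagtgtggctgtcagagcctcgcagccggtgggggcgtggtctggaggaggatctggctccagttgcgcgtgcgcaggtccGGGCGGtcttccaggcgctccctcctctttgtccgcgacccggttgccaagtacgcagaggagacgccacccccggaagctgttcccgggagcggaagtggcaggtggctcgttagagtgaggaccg
Nr4a1: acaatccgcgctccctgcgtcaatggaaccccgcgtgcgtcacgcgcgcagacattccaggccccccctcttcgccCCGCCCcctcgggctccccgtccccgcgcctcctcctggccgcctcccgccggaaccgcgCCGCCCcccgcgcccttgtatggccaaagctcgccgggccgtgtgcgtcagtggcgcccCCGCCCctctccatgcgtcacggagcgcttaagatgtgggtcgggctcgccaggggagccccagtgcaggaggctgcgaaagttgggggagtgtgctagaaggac
Lig4: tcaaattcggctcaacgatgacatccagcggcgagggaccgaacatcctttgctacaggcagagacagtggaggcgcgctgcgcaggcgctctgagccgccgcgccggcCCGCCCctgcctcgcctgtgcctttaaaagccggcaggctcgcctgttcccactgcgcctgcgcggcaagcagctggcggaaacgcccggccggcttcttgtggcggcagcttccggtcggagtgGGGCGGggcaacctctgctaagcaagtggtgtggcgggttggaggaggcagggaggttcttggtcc
The next 3 windows hold an AP-1 site, chosen in the same way among all windows with one. Their genes have only clone or model names, so they go by place: chr5:113873106-113873405 (+) inside Coro1c, chr12:86833714-86834013 (-) and chr10:120636058-120636357 (-). Capitals mark the AP-1 letters TGANTCA, which read the same on both strands.
Coro1c intragenic window: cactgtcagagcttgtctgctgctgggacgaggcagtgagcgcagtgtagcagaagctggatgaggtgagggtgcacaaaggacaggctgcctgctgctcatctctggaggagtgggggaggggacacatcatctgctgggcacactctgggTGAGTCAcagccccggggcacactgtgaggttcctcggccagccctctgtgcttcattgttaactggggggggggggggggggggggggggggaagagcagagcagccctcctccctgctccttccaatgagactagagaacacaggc
Chromosome 12 window: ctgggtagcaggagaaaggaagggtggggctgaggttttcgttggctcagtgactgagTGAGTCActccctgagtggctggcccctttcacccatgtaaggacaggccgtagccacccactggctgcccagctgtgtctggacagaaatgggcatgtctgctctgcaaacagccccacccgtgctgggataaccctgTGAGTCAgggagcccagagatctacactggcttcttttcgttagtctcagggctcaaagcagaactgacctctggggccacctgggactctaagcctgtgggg
Chromosome 10 window: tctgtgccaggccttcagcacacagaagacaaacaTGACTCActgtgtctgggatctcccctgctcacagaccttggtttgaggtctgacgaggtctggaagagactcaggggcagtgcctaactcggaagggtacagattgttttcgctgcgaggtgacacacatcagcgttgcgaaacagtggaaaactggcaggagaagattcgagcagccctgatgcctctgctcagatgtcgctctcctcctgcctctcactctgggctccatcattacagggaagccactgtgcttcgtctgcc
The Cmtr2, Nr4a1 and Lig4 windows held 28, 35 and 29 CpG dinucleotides and 1, 3 and 2 GC boxes. The Coro1c, chromosome 12 and chromosome 10 windows held 4, 4 and 9 CpGs, with 1, 2 and 1 AP-1 matches and no GC box.

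Over all 420 windows whose start lay in a member, 13.3% held the AP-1 letters, against 7.81% of all 32817 RefSeq windows. Windows starting in wide distal regions, those of 600 bp or more on all days, held them in 5.96% of 1007 cases, and windows in regions with an authors' gene, the promoter class, in 4.07% of 9558. Windows whose start lay in no day -2 region held them in 9.36%. For the GC box the order was different: 49% of member windows held it, against 66.8% in wide distal regions, 72.1% in the promoter class, 17.5% where no region was called and 35.6% of all windows. The median member window had 14 CpGs (interquartile range 7 to 22), between 4 where no region was called and 24 in the promoter class. The AP-1 letters were held by 56 member windows, with a median of 6 CpGs, and a GC box by 206, with a median of 21 CpGs. Of the 56 windows with AP-1 letters 16 also held a GC box, and 174 member windows held neither. Other searched letters, on both strands, were GGAATG for TEAD (16.9% of member windows, 14.7% of all), CCAAT (34.5%, 37.4%), TGACGTCA for CRE (2.86%, 1.79%), CCGGAAG for ETS (11%, 8.86%) and TATAAA (7.86%, 13.6%). A GC box match always adds at least 1 CpG, so these measures overlap. Of the 420 member windows, 121 lay whole inside the member, so in the others a match could lie outside the open region. How much of a window lay inside its region was not compared between the classes. A match is a description of the letters, not of binding, and the windows of 1 gene or region can share sequence, so no test was made. Whole sequences of members far from gene starts were not analysed here.

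The regions behind these windows had group means of 61.9 to 121 normalised counts on day -2. Levels are given as normalised counts, the raw count of a region scaled by its library's effective size. At the Cmtr2 start, a gene for an mRNA cap methyltransferase, they were 121 ± 21.3 with scramble and 119 ± 17.2 with Kdm5c siRNA on day -2 (SD, n = 4 each). The start of Nr4a1, an orphan nuclear receptor and immediate early gene, had 92.4 ± 9.68 and 116 ± 9.5. Around the start of Lig4, a DNA ligase of end joining, they were 104 ± 25.8 and 102 ± 11.2. The AP-1 windows lay in regions of the same order: the Coro1c region had 100 ± 12.4 and 96.4 ± 13.9, the chromosome 12 region 90.3 ± 11.2 and 78.7 ± 16.4, and the chromosome 10 region 75.1 ± 7.82 and 61.9 ± 14.3. In the Nr4a1 region the log2 fold change of Kdm5c siRNA over scramble was 0.32, -0.08 and 0.09 on days -2, -1 and 0 (SE 0.16, 0.18 and 0.19). In the Lig4 region it was -0.02, -0.40 and -0.33 (SE 0.16, 0.16 and 0.15), and in the other 4 it lay between -0.32 and 0.12 over the days. None of the 6 was called on any day. Of 247 genes with a regular symbol whose start lay in a member, 88 had an authors' region elsewhere on day -2 and 147 had none on any day.

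Counts in regions summed to between 4474964 and 14913397 per library. The mitochondrial part of them was 56.4% to 76.3% for day -2 libraries, 87.6% to 93.2% for day -1 and 78.8% to 91.4% for day 0, which left 781309 to 3345583 nuclear counts. By arm the mitochondrial part was 70.4% to 76.3% with scramble and 56.4% to 70% with Kdm5c siRNA on day -2. On day 0 it was 87.5% to 91.4% and 78.8% to 86.8%, so the arms did not overlap on either day. On day -1 they did overlap, at 90.9% to 93.2% and 87.6% to 92.6%. The median member had 13 to 41 raw counts per library, and at most 0.384% of members were at 0 in a library. Of 10 fibroblast and preadipocyte markers, 9, 8 and 9 had an authors' region on days -2, -1 and 0, with Pdgfra lacking on each day. Epithelial and neural markers had none on any day, and macrophage, muscle and hepatocyte markers had none on days -1 and 0. On day -2, 1 of 6 macrophage markers (Csf1r), 2 of 4 muscle markers (Myod1, Myog) and 1 of 4 hepatocyte markers (Hnf4a) had one, and the endothelial Kdr had one on each day, with Cdh5 on day -2. Transcript and protein levels of Kdm5c were not analysed here, and an open region at its promoter does not report them. That region had 60.8 ± 16.6 normalised counts with scramble and 49.3 ± 17 with Kdm5c siRNA on day -2, and its adjusted p was 0.98, 0.985 and 0.978 on the 3 days (edgeR).

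The regions that members overlapped on the later days had widths of their own, which the rule did not limit. On day -2 members were 79 to 599 bp wide, with a median of 391 bp. The overlapping regions of day -1 had a median of 328 bp (124 to 2479 bp), and those of day 0 a median of 326 bp (92 to 2301 bp). The partner was narrower than the member in 59.9% of members on day -1 and 58.1% on day 0, while 8.67% and 11.7% of partners were 600 bp or wider. Several members could lie in 1 partner: 240 members shared 119 regions on day -1 and 265 shared 132 on day 0, with at most 3 to a region, so the members corresponded to 7299 and 7287 regions on those days. Of these partners, 60 on day -1 and 62 on day 0 did carry an authors' gene. The 600 bp limit cut through a continuum: the 159 members of 590 to 599 bp had a median normalised count of 54 (interquartile range 43.2 to 72.6), and the 169 wide regions of 600 to 609 bp had 53 (42.9 to 65.9).

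Most narrow distal regions lay inside genes and far from gene starts. Of the members on sequences with listed genes, 4679 (63.3%) lay inside a gene span, 1417 (19.2%) within 10 kb of one and 1294 (17.5%) farther away, and 30 lay on sequences without listed genes. The gene table does not separate exons, introns and UTRs. The median distance to a gene start was 19.5 kb (interquartile range 5.98 to 50.2 kb), with 10.2% within 1 kb, 65.6% beyond 10 kb and 12.6% beyond 100 kb. Wide distal regions lay closer, at a median of 14.3 kb, and 19.1% of them held a start against 5.18% of the members. In the promoter class 61.4% held a start and 78.8% lay within 1 kb, which checks the class against the RefSeq starts. Members were not isolated: the nearest other region of day -2 lay at a median of 3.53 kb, within 1 kb for 27.7% and within 10 kb for 76.4%.

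**Figure D1:**
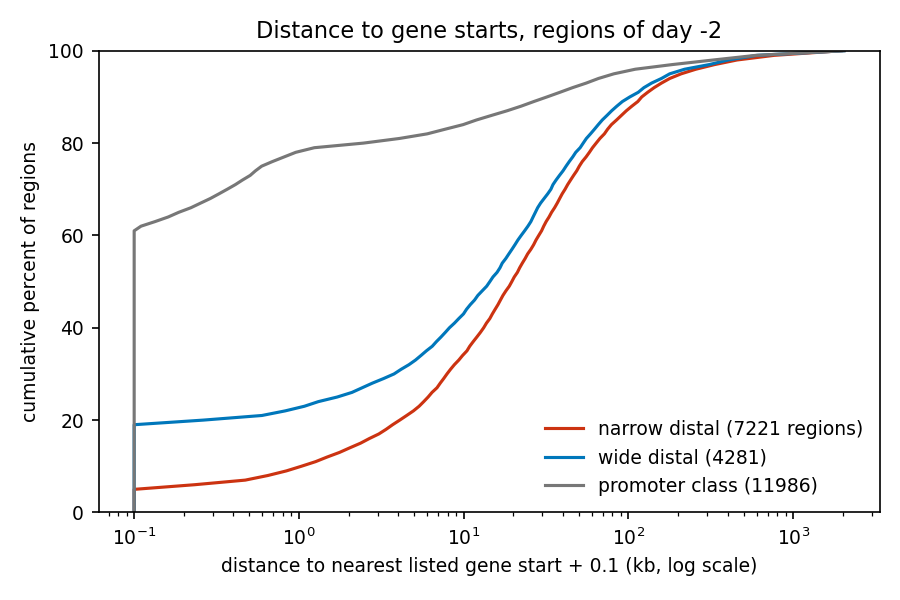
Cumulative percent of day -2 regions (vertical axis) by distance to the nearest RefSeq gene start plus 0.1 kb (horizontal axis, kb, log scale), for the 7221 narrow distal regions with a listed start on their chromosome and for wide distal and promoter-class regions. The left end shows the share holding a start, 5.18%, 19.1% and 61.4%. The narrow distal curve lies lowest up to percentile 99, at 764700 bp, where the wide distal and promoter-class curves stand at 602482 and 591085 bp.

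Members were spread over all chromosomes, in shares unlike those of narrow distal regions in general. Chromosome 6 held the most, 734 (9.89%), but it held 13.5% of all narrow distal regions of day -2 and 6.16% of the promoter class. Chromosome 5 held 668 members (9%), against 10.8% of narrow distal regions and 6.83% of the promoter class. The X chromosome went the other way: it held 150 members (2.02%) but 0.905% of narrow distal regions, so that 25% of its narrow distal regions were members. On chromosome 6 that share was 8.17% and on chromosome 3 it was 17.2%. No test was made of these shares, since neighbouring regions are not independent.

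**Figure D2:**
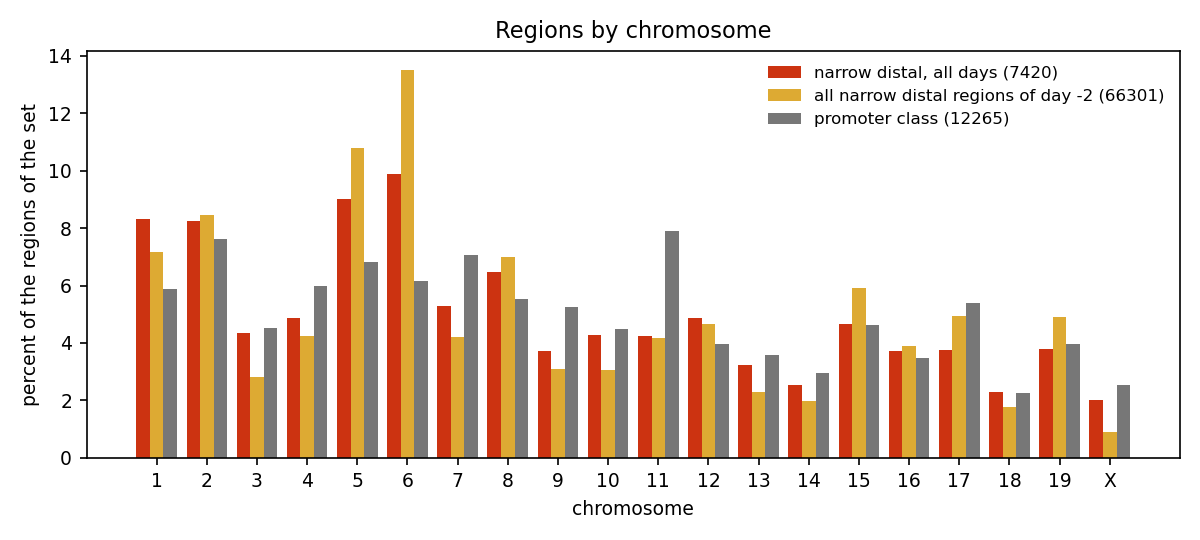
Percent of each set of regions on each chromosome (vertical axis, percent; horizontal axis, chromosome), for the 7420 narrow distal regions open on all days, all 66301 narrow distal regions of day -2 and the 12265 promoter-class regions. Chromosome 6 held 9.89%, 13.5% and 6.16% of the 3 sets.

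A few stretches of the genome held unusually dense counts. The genome was divided into windows of 500 kb, and the counts per bp of open region in each were divided by the median window. This measure and its limit were chosen after the values were seen. In windows over 4 times the median, 91 members had a median of 548 scramble normalised counts per kb, against 87.6 for the other 7329. They held 9.28% of all member counts on day -2. The counts of members enter the density of their window, so this difference is in part built in. A single region can also make a window dense: the 6 members at 35.0 to 35.5 Mb of chromosome 9 had a median of 74.8 and a maximum of 8772. The largest group lay on chromosome 10, with 26 members between 117.0 and 117.5 Mb (7.1 times the median window) and 22 between 117.5 and 118.0 Mb (10.8 times), a stretch with Mdm2, the ubiquitin ligase of p53, and Cpm, Nup107, Frs2 and Yeats4. Further windows on chromosome 10 were at 107.0 to 107.5 Mb with 10 members (5.98 times) and at 118.5 to 119.0 Mb with 6 members (5.04 times). On chromosome 2, 13 members lay between 77.5 and 78.0 Mb (4.76 times), around Cwc22 and Zfp385b. The cause of the density was not tested.

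The 10 most counted members included 4 in dense windows. The first, at 9:35305216-35305591, had 3197, 3041, 3063 and 3858 normalised counts with scramble and 3855, 2694, 3153 and 3328 with Kdm5c siRNA on day -2. The arms overlapped. The region at 2:98665052-98665208, 156 bp wide, had 3462, 3296, 3048 and 3497 with scramble and 3417, 2261, 3020 and 3057 with Kdm5c siRNA, in a window with 350 times the median density. In nuclear CPM per kb, the CPM of a region taken over the nuclear counts of its library and divided by its width on that day, it stood at 8950, 16105 and 15938 with scramble on days -2, -1 and 0, the densest of the 10 on each day. Inside Chl1, a neural cell adhesion gene, the region at 6:103649048-103649291 had 1935 ± 219 and 1752 ± 347 (SD, n = 4 each). The others were at 11:109011641-109012117 (1430 ± 163 and 1617 ± 420), 3:5860340-5860824 (1331 ± 143 and 1457 ± 334), and inside Cdk8, the kinase of the Mediator complex (1360 ± 203 and 1539 ± 412), Filip1l (1137 ± 161 and 1274 ± 414), Aida (884 ± 112 and 889 ± 158), Zc3h7a (662 ± 75 and 738 ± 175) and Lars2, the mitochondrial leucyl-tRNA synthetase (667 ± 73.3 and 700 ± 68.6). Replicate 2 set the spread of the Kdm5c siRNA arm: it was the highest of the 8 libraries at 7 of the 10 regions and the lowest at the other 3. Replicate 3 of that arm was the lowest at 6.

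The share of nuclear counts in narrow distal regions was higher on days -1 and 0 than on day -2 in both arms, as it was in other classes of region. Their share was 12.4% ± 0.271 with scramble and 11.8% ± 0.795 with Kdm5c siRNA on day -2 (SD, n = 4 each). On day -1 it was 17.1% ± 0.0559 and 17.1% ± 0.191. On day 0 it was 15.4% ± 0.324 (n = 4) and 15.8% ± 0.305 (n = 3). The arms overlapped on each day: 12.2% to 12.8% against 10.7% to 12.6%, 17.1% to 17.2% against 16.9% to 17.3%, and 15.1% to 15.9% against 15.6% to 16.1%. With scramble, wide distal regions held 21.4%, 27.3% and 25.9% of nuclear counts on days -2, -1 and 0, and the promoter class held 35.4%, 45.5% and 45.6%. As a share of all counts, mitochondrial ones included, the members had 3.29%, 1.31% and 1.72% with scramble, so the order of the days depends on the total used. In nuclear CPM per kb, the median member stood at 36.9, 54.8 and 46.2 with scramble and at 34.6, 54.4 and 48.8 with Kdm5c siRNA on days -2, -1 and 0. With scramble, 87.4% of members were higher on day -1 than on day -2, by a median of 0.55 on the log2 scale, and 72% were higher on day 0, by 0.33. Between day -1 and day 0 the median difference was -0.23. These are descriptions with no test, since presence on all days chose the members, and since each day had its own set of regions: on day -2, 51461 distal regions open on that day alone took 22.4% of the nuclear counts with scramble. When levels were instead set against the counts in nuclear regions matched 1 to 1 over the days, an alternative chosen after seeing the data, the median differences were 0.06, -0.10 and -0.17, and the second of them turned its sign.

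**Figure D3:**
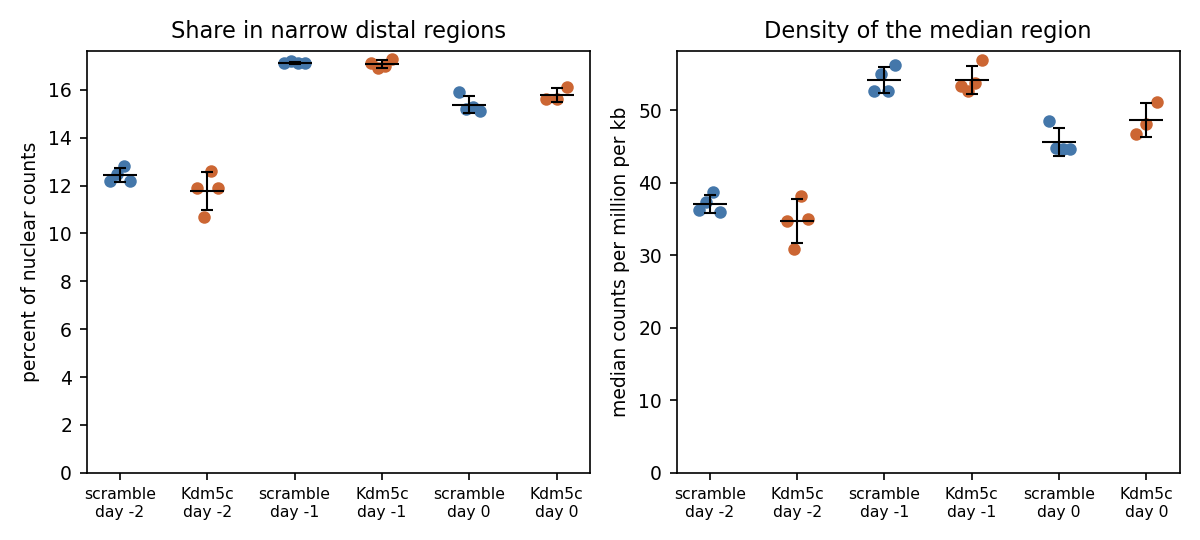
Left, percent of nuclear counts in narrow distal regions per library; right, nuclear CPM per kb of the median narrow distal region per library. Points are libraries, horizontal lines are means and bars are 1 SD (n = 4, or 3 for Kdm5c siRNA on day 0); the arms overlap in share on each day, with means of 12.4%, 17.1% and 15.4% for scramble and 11.8%, 17.1% and 15.8% for Kdm5c siRNA over the days.

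No narrow distal region passed the test for an effect of Kdm5c siRNA on any day. Each day was tested with edgeR's quasi-likelihood test over all regions, and p-values were adjusted by Benjamini-Hochberg over all tested regions. On day -2, 0 of 7162 tested members had an adjusted p under 0.05, where 0.00404% of all 49455 tested regions had one. The unadjusted p was under 0.05 for 374 members (5.22%, against 4.63% of all regions), 102 of them higher and 272 lower with Kdm5c siRNA. On day -1, 0 of 6442 members were called, where 0.0% of all 23304 regions were, and 339 (5.26%, against 5.38%) had an unadjusted p under 0.05, 135 higher and 204 lower. On day 0, 0 of 6791 members were called, where 0.00352% of all 28398 regions were, and 423 (6.23%, against 5.99%) had an unadjusted p under 0.05, 250 higher and 173 lower. DESeq2 called 0 members on each day as well, where it called 0.0% of all regions, with 231 (3.11%, against 3.58%), 360 (4.93%, against 5.02%) and 390 (5.35%, against 5.62%) at an unadjusted p under 0.05. The smallest adjusted p of a member was 0.98, 0.271 and 0.0771 on the 3 days. Members whose libraries did not overlap between the arms numbered 207 on day -2 (2.89%, against 2.87% of all tested regions), 220 on day -1 (3.42%, against 3.27%) and 441 on day 0 (6.49%, against 6.22%). These shares stood near those of all regions.

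The directions at an unadjusted p depended on the scaling, and on day 0 on abundance too. On day -2, 1.42% of members were higher and 3.8% lower at an unadjusted p under 0.05, against 2.32% and 2.31% of all tested regions. On day -1 the shares were 2.1% and 3.17%, against 2.55% and 2.82%, and on day 0 they were 3.68% and 2.55%, against 2.67% and 3.32%. Of the members whose arms did not overlap, 64 were higher and 143 lower on day -2 (0.894% and 2.0% of members, against 1.51% and 1.35% of all regions). The numbers were 89 and 131 on day -1 (1.38% and 2.03%, against 1.58% and 1.69%) and 268 and 173 on day 0 (3.95% and 2.55%, against 3.11% and 3.11%). Under total-count scaling all 1434 members with an unadjusted p under 0.05 on day -2 were higher, and among regions at or above the median abundance 93 of 193 were higher on day 0. On days -2 and -1 that abundance limit left 77 of 281 and 43 of 113 higher, beside 102 of 374 and 135 of 339 without it. The split was not particular to the members: of wide distal regions, 69 were higher and 211 lower on day -2, and 195 higher and 144 lower on day 0. The difference between members and other regions in these shares was not tested.

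The median narrow distal region stood near 0 on the log2 scale on each day. The median log2 fold change was -0.071 on day -2, -0.011 on day -1 and 0.034 on day 0, beside 0.000, -0.003 and -0.009 over all tested regions. The middle 90% of members lay between -0.55 and 0.42 on day -2; the limits were -0.59 and 0.56 for day -1, then -0.57 and 0.69 for day 0. The median standard error of a member was 0.28, 0.33 and 0.35, with a median of 33, 20.5 and 23.1 counts per library. Wide distal regions, which had 70.2, 39.1 and 43.1 counts, had medians of -0.044, -0.001 and 0.031, and the promoter class had 0.028, -0.001 and -0.014. Members holding a gene start had medians of -0.002, -0.023 and -0.019, and those over 10 kb from a start -0.090, -0.014 and 0.045. The day -2 median moved to -0.034 without replicate 2 of Kdm5c siRNA and to -0.134 without replicate 3. These fold changes are relative to the bulk of nuclear regions, as TMM scaling sets it. Mitochondrial reads are the larger part of total counts, and that part was lower with Kdm5c siRNA on days -2 and 0, as given above. Scaling by total counts moved the median of all regions to 0.44, 0.38 and 0.56 and the median of the members to 0.37, 0.37 and 0.60. Under it, 146 members (2.04%, against 2.47% of all regions) were called on day -2, all of them higher, and 0 on the other days, so the direction of the day -2 and day -1 medians depends on the scaling.

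**Figure D4:**
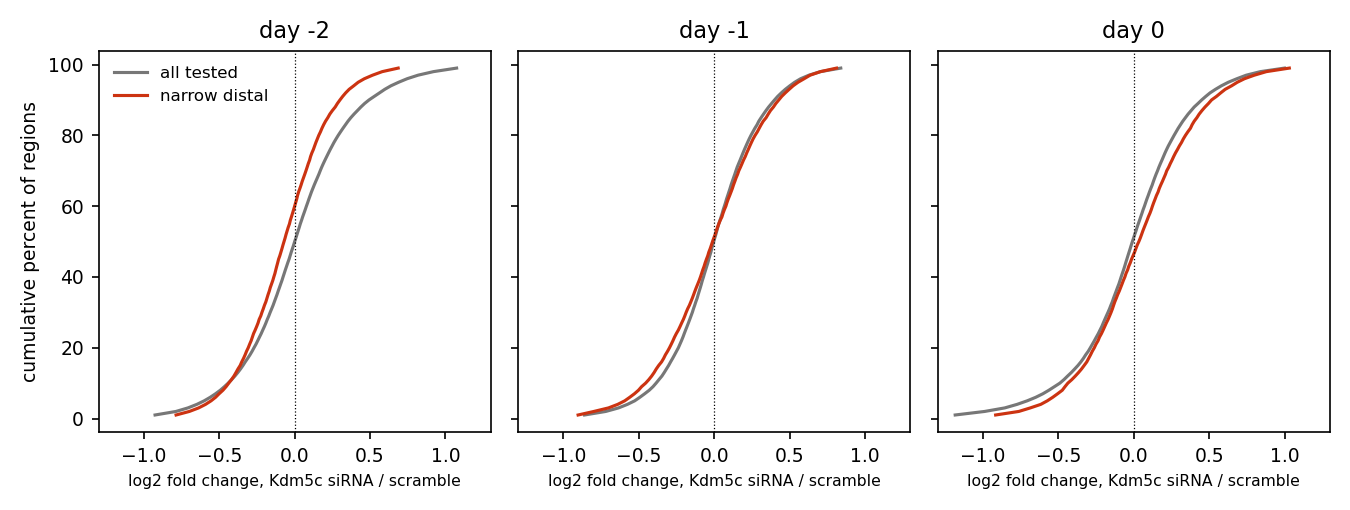
Cumulative percent of tested regions (vertical axis) by log2 fold change of Kdm5c siRNA over scramble (horizontal axis), percentiles 1 to 99, for narrow distal and for all tested regions on each day. The curves of narrow distal regions cross 50% at -0.071, -0.011 and 0.034, those of all regions at 0.000, -0.003 and -0.009.

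On day -2 the named regions, chosen by smallest p among well-counted members whose arms did not overlap, had log2 fold changes under 1. The region 8535 bp from Fos, whose product is a subunit of AP-1, lay at 12:85485809-85486406. It had 67, 51.2, 56.2 and 60.3 normalised counts with scramble and 94.2, 73.2, 90 and 94.6 with Kdm5c siRNA. All 4 Kdm5c siRNA libraries were above all scramble libraries, with a log2 fold change of 0.57 (SE 0.18) and an adjusted p of 0.98. On days -1 and 0 the partner regions had log2 fold changes of -0.13 and 0.10. Inside Prss36, a serine protease gene, the region at 7:127935410-127935944 had 40 ± 9.05 and 63.1 ± 8.67 (SD, n = 4 each). Within Rhof, a small GTPase gene, 5:123136140-123136628 had 44.8 ± 7.66 and 68 ± 15.4. A region in a dense window, 10:107238949-107239180, had 68.8 ± 7.25 and 96.7 ± 1.81. Their log2 fold changes were 0.69, 0.60 and 0.49.

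Among the lower ones on day -2, the region at 1:166255625-166256142 inside Ildr2, an immunoglobulin-like receptor gene, had 73.4, 69.5, 80.9 and 82 with scramble and 47.1, 48.3, 58.1 and 47.9 with Kdm5c siRNA. Its log2 fold change was -0.60 (SE 0.20). St3gal2 encodes a sialyltransferase, and the region at 8:110941403-110941992 inside it had 77.1 ± 7.22 and 51.9 ± 4.4, a log2 fold change of -0.57. The 2 others, at 12:60292566-60293086 and 12:109958491-109959053, lay over 10 kb from a gene, with log2 fold changes of -0.69 and -0.58. The adjusted p was 0.98 for all 8, and none had an unadjusted p under 0.05 on another day. Under total-count scaling, which moved the median of all regions up as given above, the 4 higher ones were called, at log2 fold changes of 1.13 (Prss36), 1.02 (near Fos), 1.07 (Rhof) and 0.94 (10:107238949-107239180) and adjusted p-values of 0.0226 to 0.0252.

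On day -1, 3 of the 8 named regions differed by more than 1 on the log2 scale, and none was called. The region at 6:135083926-135084361 inside Gprc5a, the gene of an orphan receptor induced by retinoic acid, had 27.8, 29.8, 14 and 18.2 normalised counts with scramble and 60.1, 59.2, 34.4 and 42 with Kdm5c siRNA. Its log2 fold change was 1.07 (SE 0.25) with an adjusted p of 0.271, and on days -2 and 0 it was -0.14 and 0.01. In the other direction, the region at 2:4401123-4401764 inside Frmd4a had 24.9, 34.4, 46.2 and 49.2 with scramble and 22, 24.4, 9.1 and 13.7 with Kdm5c siRNA. The log2 fold change there was -1.16 (SE 0.29), the adjusted p 0.479, and the values of the other days were -0.36 and 0.14. Serpinb2, which encodes an inhibitor of plasminogen activators, held a region at 1:107505941-107506376 with 33.7 ± 4.62 and 51 ± 7.43, a log2 fold change of 0.62. The direction was the same on the other days, at 0.13 on day -2 and 1.03 on day 0, although neither was called.

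The remaining named regions of day -1 were 8:116143799-116144498 (log2 fold change 0.81), 5:92932948-92933307 inside Shroom3, an actin-binding protein gene (0.93), 11:96018127-96018659 at 6101 bp from Gip, the gene of an incretin hormone (-1.26), 15:67110448-67111119 inside St3gal1 (-0.63) and 8:95702441-95703257 inside Ndrg4 (-0.64). Their adjusted p-values were 0.836, 0.856, 0.592, 0.698 and 0.698. Named on day -1 are the partners of members, and those at 8:116143799-116144498, Frmd4a, St3gal1 and Ndrg4 were 699, 641, 671 and 816 bp wide.

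Day 0 had 3 libraries of Kdm5c siRNA, and none of its 8 named regions was called. The region at 1:162037966-162038357 inside Dnm3, a dynamin gene, had 15.7, 17.6, 16 and 8.05 normalised counts with scramble and 37.5, 28.8 and 34.1 with Kdm5c siRNA. Its log2 fold change was 1.19 (SE 0.35) and its adjusted p 0.584, with -0.04 on day -2 and -0.27 on day -1. Inside Thrb, the thyroid hormone receptor beta gene, 14:17918021-17918463 had 28.1, 18.7, 14.7 and 12.1 against 42.9, 31.6 and 36.8. This gave a log2 fold change of 0.98 (SE 0.32) and an adjusted p of 0.678. Lpxn encodes a focal adhesion adaptor, and 19:12833413-12834176 inside it had a log2 fold change of 0.64, while 11:120349945-120350593 had 0.58. Those partner regions were 763 and 648 bp wide.

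The lowest p of a named region on day 0 belonged to 10:117672034-117672306 inside Cpm, a carboxypeptidase gene in the dense stretch of chromosome 10. It had 265, 283, 302 and 296 with scramble and 234, 189 and 186 with Kdm5c siRNA. The log2 fold change was -0.51 (SE 0.13), the adjusted p 0.361, and scaling by total counts turned it to 0.05. The sequence around it was 12.5 times the median density on that day. Members were counted here, so a day 0 region shared by members counts once for each. In dense windows 15 of 90 tested (16.7%) had an unadjusted p under 0.05 (edgeR) on day 0, with a median log2 fold change of -0.114. Elsewhere 420 of 6834 (6.15%) had one, with a median of 0.037, beside 5.99% of all tested regions. The other days did not repeat this: dense windows had 7 of 89 (7.87%) on day -2, with a median of 0.109. On day -1 they had 5 of 87 (5.75%), with a median of -0.082. Neighbouring members there are not independent, and the difference was not tested. The other lower ones were 7:38177143-38177455 (-0.67) and 2 regions on unplaced sequences, JH584304.1:49790-49936 (-0.68) and GL456387.1:15041-15458 (-0.82), each with an adjusted p of 0.678.

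**Figure D5:**
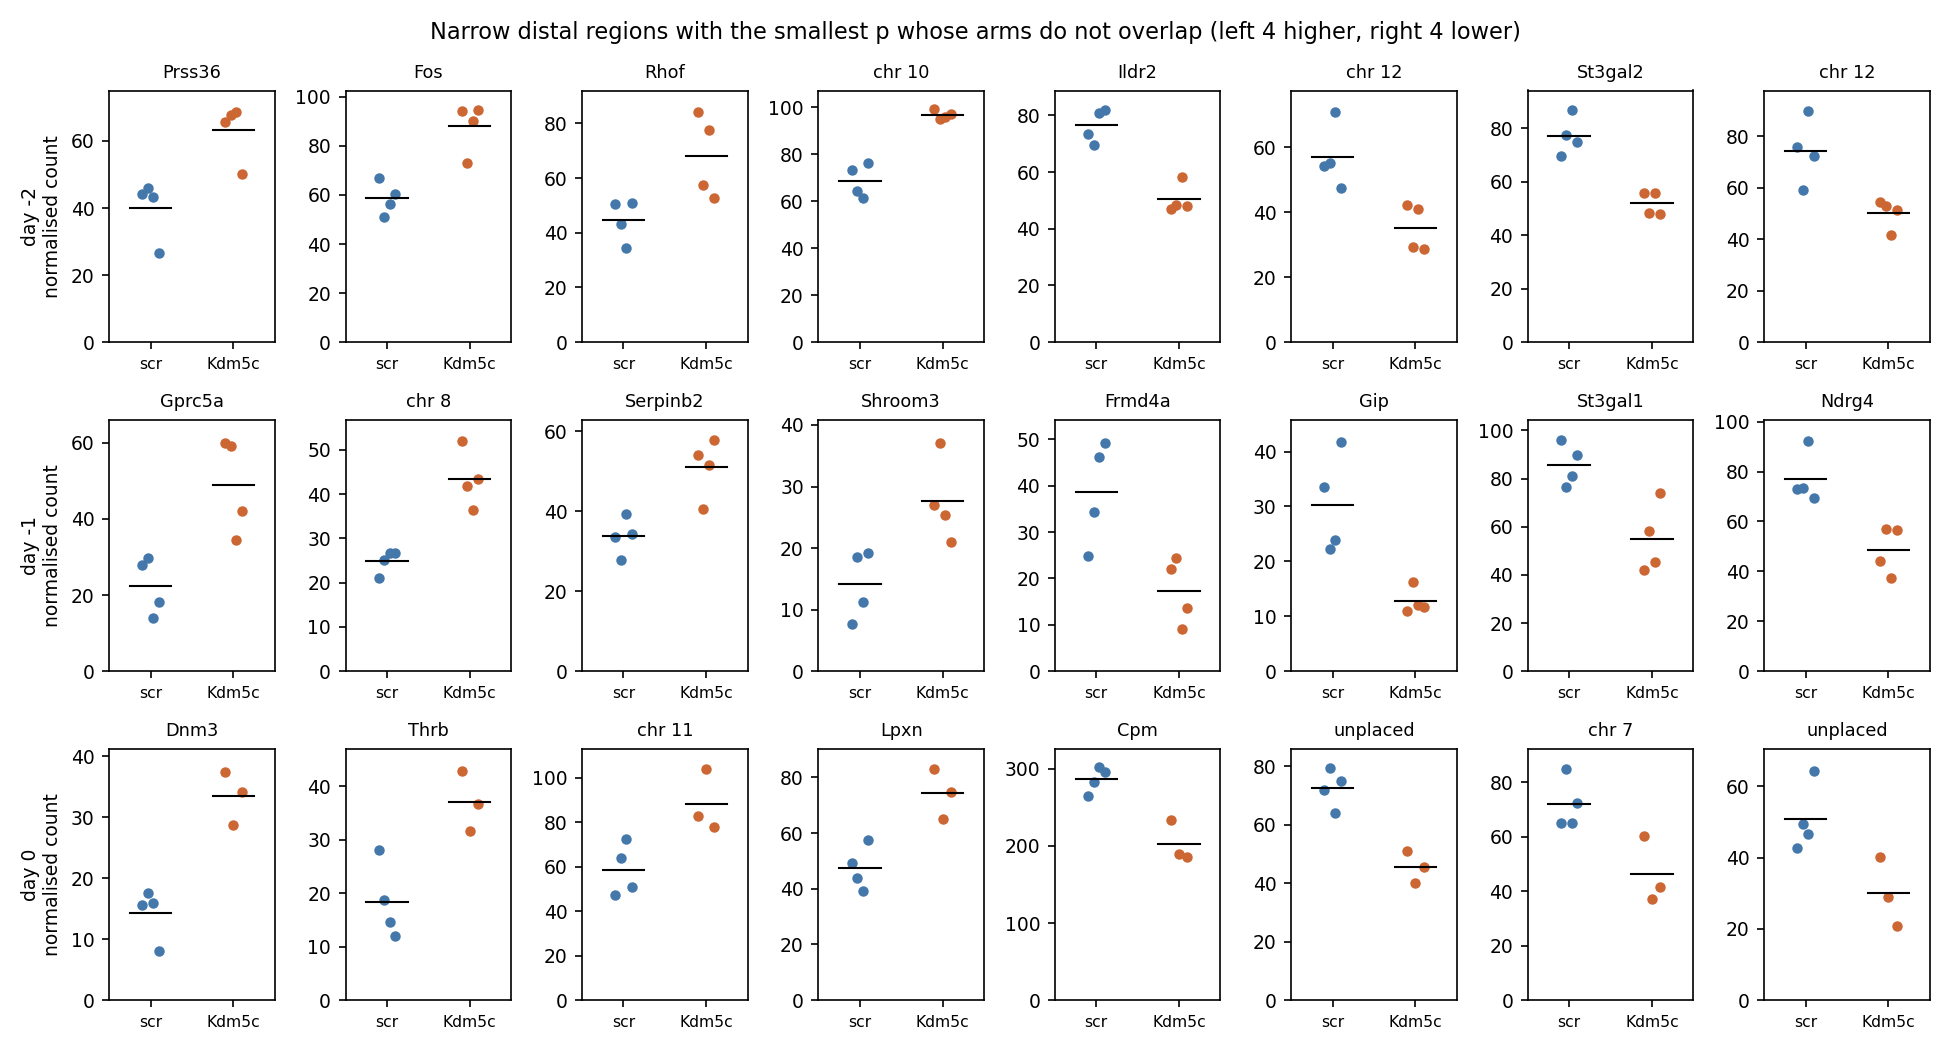
Normalised counts per library (vertical axis, from 0) at the 8 named narrow distal regions of each day, scramble (scr) and Kdm5c siRNA (Kdm5c); points are libraries and lines are means, and titles give the gene that holds the region or lies within 10 kb, or else the chromosome. On days -1 and 0 the regions shown are the partners of members, up to 816 bp (Ndrg4, day -1) and 763 bp (Lpxn, day 0) wide. The arms do not overlap in any panel because that chose the regions; none had an adjusted p under 0.05, the lowest being 0.271 at Gprc5a on day -1.

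On day 0, 2 members were called under another setting alone, and they are named here after their values were seen. The region at 16:13350885-13351058 inside Mrtfb, a coactivator of serum response factor, had 3.37, 7.71, 9.83 and 0 normalised counts with scramble and 37.5, 25.1 and 16.5 with Kdm5c siRNA. It had the smallest adjusted p of a member on that day, 0.0771 at a log2 fold change of 2.24 (SE 0.51), and 0.0445 with no filter on low counts. Raw counts were 0 to 8 with scramble and 27 to 30 with Kdm5c siRNA, and the member itself, on day -2, had 33.8 ± 1.93 and 37.3 ± 5.15. The region inside Aida at 1:183299132-183299590 had 728, 941, 961 and 884 with scramble and 863, 684 and 510 with Kdm5c siRNA on day 0. Its log2 fold change of -0.37 (adjusted p 0.678) became -0.56 (0.0296) without replicate 1 of Kdm5c siRNA.

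No narrow distal region at genes of fat cell biology passed the test, as no member passed it anywhere. Lists of genes were intersected with the members, counting those inside or within 10 kb of a list gene. On days -2, -1 and 0, 0 members of any of the 10 lists were called by edgeR. Of all tested regions 0.00404%, 0.0% and 0.00352% were called, so lists of this size could hardly hold a call. The adipogenic transcription factors had 27 members at 12 of 23 genes, with medians of -0.11, -0.01 and 0.05 on days -2, -1 and 0. Nfia, a transcription factor gene, held 10 of them between 97601333 and 98104450 on chromosome 4, more than any other gene of a regular name except Tns1 with as many and the Igh locus with 12. On day -2 the member at 4:97751037-97751628 had 44.3, 72.1, 46.4 and 50.7 with scramble and 24.8, 40.7, 54.8 and 29.9 with Kdm5c siRNA, and the arms overlapped. Scramble means of the Nfia members ran from 10.8 to 53.4, and of the 9 tested on day -2, 1 had a log2 fold change above 0, with a range of -0.46 to 0.52 and a median of -0.29, where 40% of all tested members were above 0. On day -1 the median was -0.34, with 2 of 9 above 0, and on day 0 it was 0.04, with 4 of 8 above 0. No Nfia member had an unadjusted p under 0.05 on any day, and 2 adjacent ones shared 1 region on day -1.

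Ebf1 and Ebf2, early factors of the adipocyte lineage, held members too. At 14:67234411-67234928 in Ebf2 there were 60.8 ± 8.21 normalised counts with scramble and 53.5 ± 8.58 with Kdm5c siRNA on day -2 (SD, n = 4 each). The Ebf1 region at 11:44951407-44951948 had 58.6 ± 7.67 and 42.3 ± 13, a log2 fold change of -0.44 (SE 0.22) that was 0.22 (SE 0.34) on day -1. On day 0 its partner, 120 bp wide, was under the filter on low counts and not tested, with 9.62 ± 3.3 (n = 4) and 4.33 ± 2.03 (n = 3). Zfp467, a zinc finger gene, held 6:48443967-48444376 with log2 fold changes of 0.20, 0.43 and 0.40 on the 3 days (SE 0.21, 0.22 and 0.21), none of them called. The adipocyte lipid genes had 9 members at 6 of 24 genes, with medians of -0.04, 0.12 and 0.06. Examples were the region 9060 bp from Scd2, a fatty acid desaturase gene (93.9 ± 6.63 and 91.6 ± 5.95), and one inside Elovl6, a fatty acid elongase gene (90 ± 5.55 and 78.3 ± 12.6). At 7:141468670-141469092, inside Cd151 and 7927 bp from Pnpla2, the gene of adipose triglyceride lipase, the values were 73.4 ± 14.6 and 50.1 ± 7.93.

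Preadipocyte and anti-adipogenic genes had 23 members at 14 of 29 genes, with medians of -0.13, 0.18 and -0.06. Runx1, a transcription factor gene, had 5 of them. The member at 16:92653917-92654120 had 27.8, 26.2, 31.6 and 27.3 with scramble and 19.8, 18.9, 22.1 and 18 with Kdm5c siRNA on day -2. The arms did not overlap there, the log2 fold change was -0.52 (SE 0.33), and on days -1 and 0 the partner regions had 0.35 and 0.27. The day 0 partner, 1001 bp wide, was shared with the Runx1 member at 16:92654548-92654988. Over the 5 members the day -2 log2 fold changes ran from -0.52 to 0.19, and 0 had an unadjusted p under 0.05 (edgeR). The most counted of them, at 16:92609384-92609952, had 70.8 ± 7.76 and 64.3 ± 11.9, a log2 fold change of -0.13, and its arms overlapped. Id2, an inhibitor of helix-loop-helix factors, lay 2477 bp from 12:25098569-25099024, with 79.2 ± 9.3 and 86.1 ± 5.96. In nuclear CPM per kb with scramble, that region stood at 73.1 ± 9.06, 151 ± 32.5 and 110 ± 9.17 on the 3 days.

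Members also lay at genes of matrix and of AP-1 and TEAD factors. Collagen and matrix genes had 40 members at 28 of 43 genes, with medians of -0.02, 0.06 and 0.00. Fbln2, a matrix protein gene, had 3 of them, of which 6:91207535-91207958 had 96.1 ± 7.43 and 99.4 ± 18.2 on day -2. The AP-1 and YAP-TEAD genes had 29 members at 16 of 32 genes, with medians of 0.00, -0.04 and 0.01. Tead4, a TEAD factor gene, had 5. At 6:128282186-128282644 in Tead4 there were 56.9, 99.7, 102 and 77.2 with scramble and 74.4, 68.6, 76.9 and 69.4 with Kdm5c siRNA. The scramble libraries enclosed those of the other arm. Vgll4 and Vgll3, cofactors of TEAD, held members with 87.9 ± 3.29 and 108 ± 15.3, and with 81.1 ± 7.85 and 78.4 ± 10.6.

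Actin and focal adhesion genes had the most members of a list, 63 at 25 of 37 genes, with medians of -0.03, -0.03 and 0.06. Besides Filip1l these lay in Ahnak (6 members), Bcar1, a focal adhesion scaffold gene (89.4 ± 10.7 and 91.4 ± 14.1) and Myh9, a non-muscle myosin gene (88.9 ± 16.8 and 79.2 ± 3.43). Growth factor signalling genes had 21 members at 12 of 33 genes, with medians of -0.02, 0.09 and -0.05, among them 5 at Met, the receptor of hepatocyte growth factor, and 1 in Tgfbr3 with 92.9 ± 10.4 and 84 ± 12.9. Proliferation genes had 13 members at 8 of 30 genes, with medians of 0.10, 0.10 and -0.06, and the most counted were 3 at Mdm2, in the dense stretch of chromosome 10. The one at 10:117697286-117697815 had 411 ± 18.6 and 424 ± 17.8.

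The last lists were of the enzyme class that the siRNA targets and of markers of other tissues. Genes of histone H3 lysine 4 enzymes had 4 members at 2 of 19 genes, 3 of them at Setd1b, a methyltransferase, and 1 at 6428 bp from Kdm5a, a demethylase of the same family as Kdm5c. The most different of these on day -2 was the region inside Rhof given above, which lay 5412 bp from Setd1b and had a log2 fold change of 0.60 (SE 0.21), then -0.32 and 0.28 on days -1 and 0. The Kdm5a neighbour at 6:120357156-120357671 lay inside another gene, Ccdc77, and held a listed gene start. It had 61.6 ± 6.33 with scramble and 60.1 ± 13.5 with Kdm5c siRNA on day -2. Markers of other cell types had 4 members at 4 of 27 genes. Among them were regions near Krt5 (52.9 ± 9.45 and 44.8 ± 1.2), in Cdh1 (46.5 ± 3.7 and 36.9 ± 8.49) and 5047 bp from Cd68, inside Eif4a1 (31.3 ± 6.3 and 44.7 ± 15). Medians of the 2 lists over so few members were 0.22, 0.20 and -0.33, and -0.25, -0.10 and 0.25.

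Whether the effect of the siRNA differed between days was tested over 13674 regions matched 1 to 1 on all days, of which 3642 were members. By edgeR 0 members were called for day -1 against day -2, day 0 against day -2 and day 0 against day -1, where 0.0% of all matched regions were called in each. At an unadjusted p under 0.05 stood 174, 265 and 192 members (4.78%, 7.28% and 5.27%), against 4.92%, 6.4% and 5.21% of all matched regions. The smallest adjusted p belonged to 3:126827857-126828322 inside Camk2d, a calcium/calmodulin-dependent kinase gene. It had 59.5, 85.3, 80.9 and 53.1 normalised counts with scramble and 47.1, 46.8, 65.4 and 44.3 with Kdm5c siRNA on day -2. On day 0 it had 8.99, 18.7, 4.91 and 12.1 with scramble and 28.1, 33.5 and 30.8 with Kdm5c siRNA, from 4 to 17 and 21 to 56 raw counts. Its arms overlapped on day -2 and not on day 0, and the day 0 effect exceeded that of day -2 by 1.85 (SE 0.42, adjusted p 0.139). It was called without replicate 3 of Kdm5c siRNA on day -2 (1.98, adjusted p 0.0236) and without replicate 2 of scramble on day 0 (2.24, 0.0389). Without the former library a member in Pls3, the gene of an actin-bundling protein, at X:75818870-75819196 was called too, at 2.34 (adjusted p 0.0483) against 1.78 (0.403) with all libraries.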

How the data were processed

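Tests used the read counts per region as the authors deposited them, in 1 table of whole numbers per day. A second deposited table per day held normalised signal for the regions the authors gave a gene name; in each library it equalled the raw count divided by 1 constant (largest relative deviation 4.8e-10) and served for the gene names alone. The build GRCm38 and the tools DESeq2 1.24.0, HTSeq 0.9.1, MACS2 2.1.1, Bowtie2 2.2.9 and cutadapt 2.3 are listed per the submitters' processing notes. Settings are not stated there, nor whether peaks were called on pooled libraries, nor how duplicate and multiply mapping reads were handled. Coordinates are printed as deposited, and whether starts count from 0 or 1 is not stated.

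Each day was fitted alone with edgeR 4.0.16 in R 4.3.3 (quasi-likelihood F test, TMM, filterByExpr, no covariate), with DESeq2 1.42.0 as second tool and Benjamini-Hochberg adjusted p under 0.05 as the threshold. The SE of a fold change is its size over the root of F. Day differences were interactions in 1 fit over regions with 50% reciprocal overlap on all days. The scripts were tested on simulated counts. Gene spans, starts and promoter windows came from RefSeq tables of GRCm38.p6.

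Named were, per day, every called member and the 4 members with the smallest p in each direction among those at or above the median abundance whose arms did not overlap, then the 10 most counted members of day -2 and the 3 most counted members at each list of genes (1 of these is not reported here), and any member called in a difference between days. Outside this rule, and chosen after values were seen, are genes with many members (such as Nfia, Runx1 and Tead4), gene-start regions shown with their windows, and the regions in Mrtfb, Aida, Camk2d and Pls3. Members, lists and rules were chosen with earlier results of these data known, so none is independent support. The closing section gives the other scalings, filters, widths, overlaps, the replicate block and libraries left out.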

Additional observations from a re-analysis of the deposited data

Results flagged for a closer look

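Values of single libraries at the named regions and the shares of nuclear counts were examined in 123 groups of 4 libraries, and in 5 of them 1 library stood apart from the other 3. Chance alone flags about 1 in 20 such groups. At 7:127935410-127935944 inside Prss36, replicate 4 was low in both arms on day -2, with 26.5 normalised counts against 43.4 to 45.9 with scramble and 50.3 against 65.7 to 68.7 with Kdm5c siRNA. At 1:166255625-166256142 inside Ildr2, replicate 3 of Kdm5c siRNA had 58.1 on day -2, against 47.1 to 48.3 in the others. At 5:139010582-139011047 6257 bp from Prkar1b and 9790 bp from Pdgfa, replicate 4 of Kdm5c siRNA had 92.2, against 57 to 60.3. At 10:117697286-117697815 inside Mdm2, replicate 2 of Kdm5c siRNA had 397, against 430 to 435.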

How the results depend on the processing

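Calls of narrow distal regions changed under few settings. Total-count scaling called 146 members on day -2 and turned the Cpm region of day 0 (10:117672034-117672306) from -0.51 to 0.05; mitochondrial reads enter that scale. With no filter on low counts 1 member was called on day 0. Leaving out 1 library at a time gave 0 calls on days -2 and -1, 0 to 1 on day 0, and for the differences between days 0 to 2 (day 0 against day -2) and 0 for the other pairs; the 2 came without replicate 3 of Kdm5c siRNA on day -2. The cause was not tested. Under the other settings run for these tests (DESeq2 size factors, DESeq2's test, median abundance, no mitochondrial regions, members under 500 bp or with 50% overlap, 80% matching) 0 members were called. Deviations of same-numbered libraries of the arms correlated at -0.039 to 0.155 on day -2. Low correlations over regions with few counts cannot settle whether the numbers pair the libraries, and the labels do not say. A fit with the replicate block called 0 members on each day and in each difference between days. At an unadjusted p under 0.05 the counts of members were 374, 339 and 423 on days -2, -1 and 0; they moved by over 1.5 times to 1434, 727 and 1550 with total-count scaling, to 231 with DESeq2 and 632 without replicate 3 of Kdm5c siRNA on day -2, and to 113 and 193 on days -1 and 0 among regions at or above the median abundance. Of 349 values of the 24 named regions under alternatives, 344 kept direction and side of the threshold. The rule gave 5693 members under 500 bp, 8875 under 700 bp and 6783 with an overlap of 50% of the narrower region. Under 500 bp the shares of nuclear counts for scramble and Kdm5c siRNA were 8.4% and 7.98% (day -2), 12.3% and 12.2% (day -1), then 11.3% and 11.5% (day 0). With 50% overlap they were 11.8% for scramble at day -2, 16% and 15.9% at day -1, then 14.2% and 14.6% at day 0. As shares of all counts, the full set of members had 3.29% with scramble and 4.26% with Kdm5c siRNA on day -2. It had 1.31% and 1.71% on day -1, and 1.72% and 2.52% on day 0. Level differences not divided by width were 0.38 for day -1 and 0.16 for day 0 over day -2, and against matched regions, an alternative added after seeing the data, 0.06 and -0.10. At a median of 13 to 41 counts per member and library, a member's log2 fold change had a median SE of 0.28 to 0.35, and named regions with differences over 1 missed the threshold too.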

Other observations

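Genes differed in how many narrow distal regions they held. Of 3272 genes with at least 1 member inside, 2429 held 1 and 66 held 5 or more. The Igh locus of immunoglobulin heavy chains held 12 over a span of 2751 kb, and Nfia and Tns1, a focal adhesion tensin gene, held 10 each over 541 and 214 kb. Gse1 held 9 and Cdk14, Macrod2, Snd1 and Stard13 held 8 each, as did Mdfic within a span of 82 kb. Among genes with 7 were Foxp1 and Sox5, transcription factor genes, Rarb, a retinoic acid receptor gene, Tcf7l1, which encodes a TCF factor of Wnt signalling, and Itpr1, a calcium release channel gene. Median log2 fold changes over the 8 members of Mdfic were 0.28, 0.07 and 0.20 on days -2, -1 and 0, and over the 10 of Tns1 0.00, -0.14 and 0.05. Long genes have more room for regions, and this was not corrected for.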
